A study of Rattus norvegicus with 4 samples.

Results

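Voltage-gated calcium channel genes were examined through 10 members, the pore-forming alpha1 subunit genes Cacna1a, Cacna1b, Cacna1c, Cacna1d, Cacna1e, Cacna1g and Cacna1h and the alpha2delta subunit genes Cacna2d1, Cacna2d2 and Cacna2d3. They were chosen by name, each was measured by 1 probe set annotated to that gene alone, and they were 10 of the 17245 named genes on the array. Signals came from 4 arrays of total RNA from primary cortical neurons of Sprague Dawley rats taken at embryonic day 18. In 2 arrays the neurons carried pLL3.7 lentivirus with PHF6shRNA-2, a short hairpin RNA against PHF6, and in 2 arrays the same vector with a control shRNA. The labels give the genotype as PHF6 knockdown with the PHF6 shRNA and wild type with the control shRNA. All cultures received no other treatment and were harvested 5 days after infection. PHF6 is an X-linked chromatin-associated protein mutated in an intellectual disability syndrome, and the comparison asks which transcripts differ in neurons that carry its shRNA. Only 1 PHF6 shRNA was used, so effects of PHF6 loss and other effects of that hairpin cannot be told apart. The labels call the arrays biological duplicates without naming separate cultures or litters, so p-values rest on the spread between these arrays. In the limma test used below, the spread taken for a gene is partly pooled over all genes.

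Voltage-gated calcium channels open on depolarisation and let calcium into the neuron. The alpha1 subunit forms the pore and sets the channel's type. L-type channels couple activity to gene expression in cell bodies and dendrites, P/Q-, N- and R-type channels feed transmitter release, and low-threshold T-type channels support burst firing. The extracellular alpha2delta subunits and the cytoplasmic beta subunits bring the pore to the membrane and tune its gating.

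The arrays had medians of 40.9 to 41.7 intensity units. A background level was set at the 95th percentile of 206 receptor genes of the olfactory and vomeronasal families and lay between 32.5 and 41.2 units, and all 10 members were above it on all 4 arrays. Phf6 itself was above that level on 1 array of 4, at 34.4 and 31.3 units in PHF6 shRNA and 32.8 and 34.3 in control neurons, so its probe set does not check the labels. All 8 neuron markers listed were above background on every array. Of 7 microglial markers 5 were above it on none and 2 on all 4, and of 5 endothelial and pericyte markers none was above it on all 4. Of 5 fibroblast markers 2 were above it on all 4 arrays, and of 5 progenitor markers 4 were. Astrocyte markers summed to 577 and 1131 units in the PHF6 shRNA arrays and 524 and 1037 in the control arrays, the higher sum in each group being that of duplicate 2. In such bulk RNA, fewer cells of a type and less RNA per cell cannot be told apart.

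No member passed the test. In limma's fit over all genes, without a block for the duplicate number and with Benjamini-Hochberg adjustment at 0.05, 0 of 10 members were called, and percent called over all genes was 0 as well (0 of 17245). With that block, 909 genes were called over all genes and again 0 of the members. Without the block, the members' adjusted p ran from 0.35 (Cacna1e) to 1.00 (Cacna2d1). At an unadjusted p under 0.05 stood 3 members, against 10.8% of all genes. Cacna1c was the 1 member above control, where 3.28% of all genes stood at that level, and Cacna1e and Cacna1h were the 2 below it, against 7.52% of all genes. These shares include 5902 genes above background on no array, unlike the members. Among the brightest 25% of genes, which hold some of the members, 234 of 4311 stood above control at that level and 746 below it. The count of 3 was 1 with a variance trend, Cacna1e alone. It is not given with 1 array left out, as those fits leave a lone array in 1 group. The members' differences in those fits are given further below. With only genes above mean background the count was 2, without Cacna1c. After cyclic loess it stayed at 3, but with Cacna1g in place of Cacna1h. The PHF6 shRNA and control arrays did not overlap for 5 members, against 37.8% of all genes. They lay above control for 2 members, against 16% of all genes, and below it for 3, against 21.7%. Among the brightest 25% of genes they lay above control without overlap for 596 of 4311 and below it for 1676. For 4 members (Cacna1c, Cacna1e, Cacna1g and Cacna1h) the difference between groups was larger than the gap between duplicates in either group, against 26.6% of all genes. The 95% intervals of all 10 differences lay between -0.55 and 0.52 log2 units, so none reached further than 1.46-fold in either direction. These intervals are per gene and not adjusted over genes.

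Among L-type pore genes, Cacna1c, the main L-type subunit of cortical neurons and heart, gave intensities of 166 and 161 in PHF6 shRNA neurons, against 127 and 144 in control neurons. Both PHF6 shRNA arrays lay above both control arrays, and the PHF6 shRNA duplicates lay closer together than the controls. The difference was 0.27 ± 0.10 log2 units (limma SE), or 1.21-fold, with an unadjusted p of 0.037 and a limma adjusted p of 0.42. Cacna1d, the L-type subunit that opens at more negative voltages, gave 145 and 148 in PHF6 shRNA neurons, against 149 and 175 in control neurons. The groups did not overlap, but only 0.657 units separated PHF6 shRNA duplicate 2 from control duplicate 1, and the difference of -0.14 ± 0.11 log2 units was smaller than the gap of 0.23 between the control duplicates (limma adjusted p = 0.81).

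Among the P/Q-, N- and R-type pore genes, which serve presynaptic calcium entry, the group means differed most for Cacna1e, the R-type subunit. It gave 197.1 and 197.0 units in PHF6 shRNA neurons, against 232 and 247 in control neurons. Both PHF6 shRNA arrays lay below both controls, and the 2 PHF6 shRNA values were nearly equal. The difference was -0.28 ± 0.08 log2 units, or 1.21-fold lower, with an unadjusted p of 0.018 and a limma adjusted p of 0.35, the smallest among the members. Cacna1a, the P/Q-type subunit of fast transmitter release, gave 492 and 377 in PHF6 shRNA neurons, against 508 and 469 in control neurons. The groups overlapped, and PHF6 shRNA duplicate 2 alone stood apart from the other 3 arrays. Its difference was -0.18 ± 0.15 log2 units (limma adjusted p = 0.82), and without that array it was 0.01. Cacna1b, the N-type subunit, gave 327 and 308 in PHF6 shRNA neurons, against 281 and 343 in control neurons. The PHF6 shRNA values lay inside the range of the controls, with a difference of 0.03 ± 0.12 log2 units (95% interval -0.27 to 0.34).

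The T-type pore genes, which carry low-threshold currents, lay on opposite sides of control. Cacna1h gave 164 and 175 units in PHF6 shRNA neurons, against 194 and 214 in control neurons. The groups did not overlap, and the difference was -0.27 ± 0.09 log2 units, or 1.21-fold lower, with an unadjusted p of 0.032 and a limma adjusted p of 0.41. Cacna1g gave 156 and 142 in PHF6 shRNA neurons, against 132 and 137 in control neurons. These groups did not overlap either, with 5.65 units between the nearest arrays, and the difference was 0.15 ± 0.09 log2 units (limma adjusted p = 0.69). Cacna1i, a T-type gene outside the 10 members, gave 109 and 114 in PHF6 shRNA neurons, against 114 and 141 in control neurons. Its groups overlapped, with a difference of -0.18 ± 0.13 (limma adjusted p = 0.75) that was -0.34 without control duplicate 1 and -0.03 without control duplicate 2.

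**Figure D1:**
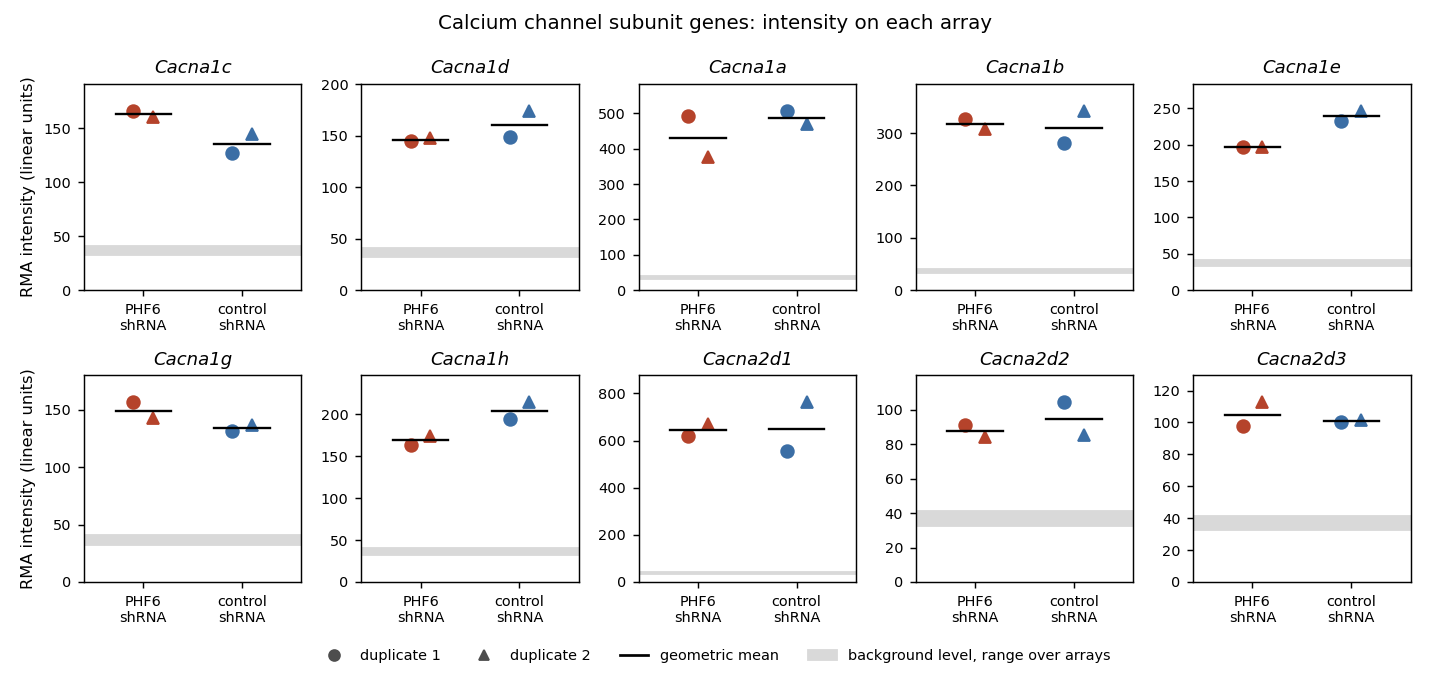
Intensity of each of the 10 member genes (vertical axis, linear RMA units, from 0) on the 2 PHF6 shRNA arrays (left, red) and the 2 control shRNA arrays (right, blue), with the geometric mean of each group as a bar and the range of the background level in grey. Cacna1c and Cacna1g lie above control, and Cacna1d, Cacna1e and Cacna1h below it, without overlap, and the other 5 genes overlap.

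The alpha2delta genes, whose products carry the pore to the membrane and include the binding sites of gabapentin, overlapped between the groups throughout. Cacna2d1 gave 618 and 672 units in PHF6 shRNA neurons, against 555 and 762 in control neurons. Both PHF6 shRNA values lay inside the control range, and the difference was -0.01 ± 0.16 log2 units with a 95% interval of -0.42 to 0.40. Cacna2d2 gave 91.1 and 84.1 in PHF6 shRNA neurons, against 104 and 85.6 in control neurons, a difference of -0.11 ± 0.12. Cacna2d3 gave 97.7 and 112.6 in PHF6 shRNA neurons, against 100.5 and 101.6 in control neurons, a difference of 0.05 ± 0.10. The limma adjusted p of the last 2 genes was 0.91 and 0.97. The gap between the control duplicates of Cacna2d1, 0.46 log2 units, was the widest of any member within a group.

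Members of a subfamily were also set against each other within each array, through the shift of their log2 ratio between groups. Such a shift equals the difference of 1 gene, as given above, minus that of the other. It shows unequal change and says nothing of which gene moved. The Cacna1g to Cacna1h ratio was 0.42 log2 units higher in PHF6 shRNA neurons, at -0.18 ± 0.16 against -0.60 ± 0.06 in control neurons (SD, n = 2 each). The Cacna1c to Cacna1d ratio was 0.41 units higher, at 0.16 ± 0.05 in PHF6 shRNA neurons against -0.25 ± 0.03 in control neurons. In both of these pairs the genes lay on opposite sides of control without overlap. Their ratios therefore could not overlap, by construction. The Cacna1b to Cacna1e ratio was 0.31 units higher, at 0.69 ± 0.06 against 0.37 ± 0.14. In these 3 of 8 pairs compared, the groups did not overlap, where 37.8% of all genes, taken singly, did not overlap. The other 5 pairs, among them all 3 alpha2delta pairs, overlapped. Several pairs share a gene, so the 8 are not independent. An exact two-sided permutation test gave p = 0.333 for each of the 3 ratios, the smallest that 2 arrays against 2 allow, and 0.889 after Benjamini-Hochberg adjustment over the 8 pairs.

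As a family the 10 members had a median difference of -0.06 log2 units, with 6 below and 4 above control, against a median of -0.01 with 52.3% below and 47.7% above over all genes. The median size of a member's difference, regardless of sign, was 0.14 log2 units, against 0.08 over all genes. Over the 9536 genes above background on all 4 arrays, as all members were, it was 0.13. The scaling of the arrays moved the family's centre. The median was -0.01 after a further quantile normalization and 0.01 after cyclic loess. As deposited, the median was -0.08 over the 25% of genes with the brightest probe sets. Under these scalings Cacna1c, Cacna1d, Cacna1e, Cacna1g and Cacna1h kept their direction, as did Cacna1a, Cacna1b, Cacna2d2 and Cacna2d3, while Cacna2d1 turned to 0.06 and 0.07. Pan-neuronal markers were below control in 7 of 8, 5 of them without overlap, where 21.7% of all genes lay below control without overlap. All 8 were among the brightest 25% of genes. Of those 4311 genes, 2844 lay below control at any size and 1676 without overlap. The median of the 8 markers was -0.15 log2 units as deposited and -0.09 after cyclic loess, which left 3 of the 8 above control. Markers of GABAergic neurons were above control in 6 of 7 (median 0.11) and those of excitatory neurons in 3 of 5 (median 0.01). With 1 array left out, the GABAergic median ran from -0.05 to 0.28 and the excitatory median from -0.03 to 0.06. The excitatory marker Slc17a6 lay below control without overlap, at -0.69 ± 0.11 log2 units (limma adjusted p = 0.23), on 47.0 to 85.2 units per array. In the same list Slc17a7 stood at 0.21 ± 0.21, Tbr1 at 0.06 ± 0.08, above control without overlap, and Bcl11b at -0.14 ± 0.14. The pan-neuronal markers summed to 10726 and 11203 units in PHF6 shRNA arrays, against 11783 and 12186 in control arrays, and the part of these marker lists in the lower signals of Cacna1d, Cacna1e and Cacna1h was not tested.

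**Figure D2:**
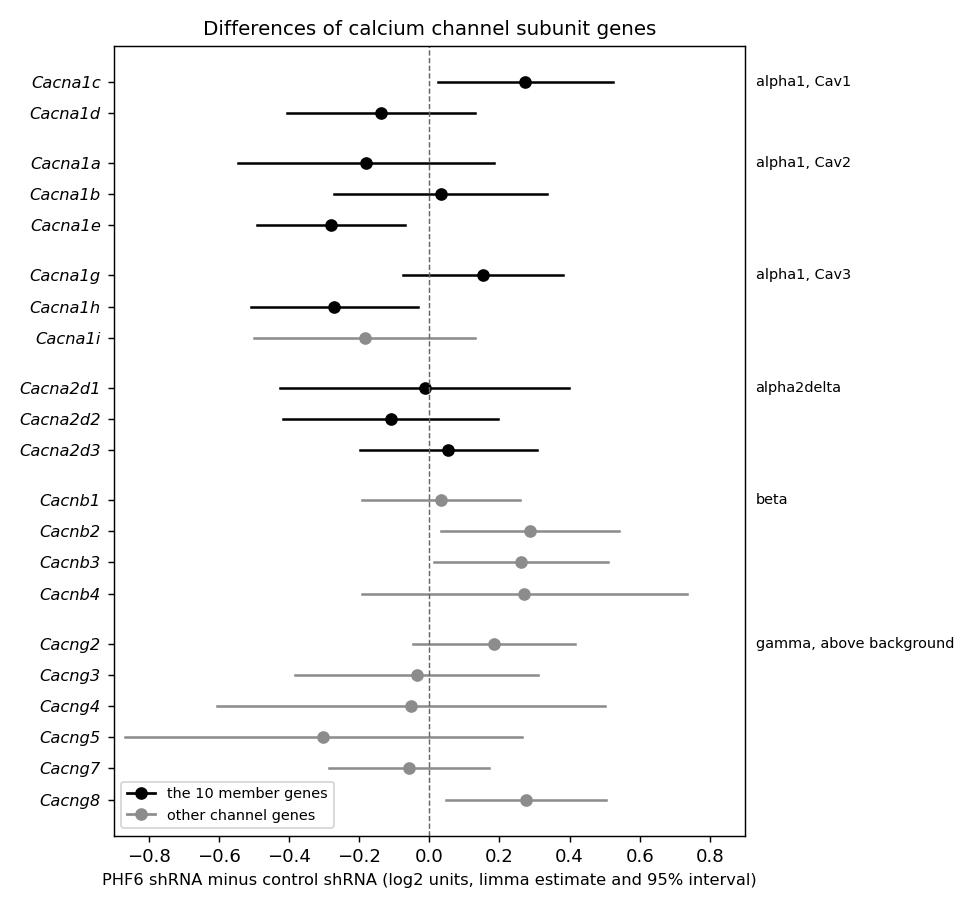
Difference between PHF6 shRNA and control shRNA arrays (horizontal axis, log2 units) for the 10 member genes in black and other calcium channel genes in grey, as limma's estimate with its 95% interval, grouped by subunit. Among the members only the intervals of Cacna1c, Cacna1e and Cacna1h leave out 0, and all 4 beta subunit estimates lie above 0.

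The promoters of Cacna1c and Cacna1e, the members with the highest and the lowest difference, are shown with that of Cacna1d, the L-type relative of Cacna1c, because their base composition differs. Each sequence is the 250 bases before the gene's start in the RefSeq table of the GRCr8 build, on the minus strand, 5′ to 3′, with CpG dinucleotides in capitals. The windows are chr4:154051749-154051998 for Cacna1c, chr13:69444811-69445060 for Cacna1e and chr16:5527550-5527799 for Cacna1d.
Cacna1c: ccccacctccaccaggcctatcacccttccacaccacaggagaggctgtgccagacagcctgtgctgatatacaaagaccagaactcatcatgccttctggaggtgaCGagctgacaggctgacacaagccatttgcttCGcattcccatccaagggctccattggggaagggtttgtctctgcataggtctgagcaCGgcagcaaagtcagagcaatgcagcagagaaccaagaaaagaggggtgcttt
Cacna1e: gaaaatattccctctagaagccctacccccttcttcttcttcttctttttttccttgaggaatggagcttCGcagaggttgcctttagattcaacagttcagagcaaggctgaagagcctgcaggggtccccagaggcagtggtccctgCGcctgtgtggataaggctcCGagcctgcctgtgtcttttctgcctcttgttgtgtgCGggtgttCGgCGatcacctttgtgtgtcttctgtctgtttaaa
Cacna1d: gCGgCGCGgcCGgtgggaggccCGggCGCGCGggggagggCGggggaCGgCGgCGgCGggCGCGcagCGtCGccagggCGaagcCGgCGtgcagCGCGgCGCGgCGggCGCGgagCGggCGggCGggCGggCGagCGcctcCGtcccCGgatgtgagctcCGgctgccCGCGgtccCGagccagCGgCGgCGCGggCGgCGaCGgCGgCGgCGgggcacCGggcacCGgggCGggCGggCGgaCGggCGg
The Cacna1c window held 3 CpG dinucleotides and the Cacna1e window 6, against 56 in the Cacna1d window. The table held starts for 8 of the 10 members, and Cacna1g and Cacna1h were not matched. The other members, Cacna1a, Cacna1b, Cacna2d2, Cacna2d3 and the 3 listed starts of Cacna2d1, had between 28 and 37. Over all 33469 promoters of the table the median was 5, with 54.8% at 6 or fewer and 6.79% at 28 or more, and 92.2% held at least 1 CG, which reads the same on both strands. The GC box GGGCGG, the core site of Sp-family factors, was searched on both strands with overlapping matches counted. It was absent from the Cacna1c and Cacna1e windows, occurred 9 times in that of Cacna1d and 1 to 7 times in the other members' windows, and was present in 30.5% of all promoters. Which start these neurons use was not measured.

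The beta subunits, cytoplasmic partners that bind the alpha1 pore and aid its export, lay above control in 4 of 4 genes, with a median of 0.27 log2 units, and none was called in either direction. Cacnb3 gave 415.0 and 414.6 units in PHF6 shRNA neurons, against 324 and 370 in control neurons, without overlap. Its difference was 0.26 ± 0.10 log2 units (limma adjusted p = 0.44). Cacnb2 gave 59.2 and 58.3 in PHF6 shRNA neurons, against 44.9 and 51.7 in control neurons. These groups did not overlap, at a difference of 0.29 ± 0.10 (limma adjusted p = 0.41). Cacnb4 gave 430 and 295 in PHF6 shRNA neurons, against 304 and 287 in control neurons. PHF6 shRNA duplicate 1 alone stood high, the difference being 0.27 ± 0.19 (limma adjusted p = 0.75) and -0.0013 without that array. Cacnb1 gave 373 and 341 in PHF6 shRNA neurons, against 344 and 353 in control neurons, and overlapped at 0.03 ± 0.09 (limma adjusted p = 0.98). The 4 genes stayed above control under all 3 other scalings, with a median of 0.32 after cyclic loess, but without PHF6 shRNA duplicate 1 Cacnb1 stood at -0.03 and the median of the 4 was 0.13.

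The remaining pore and alpha2delta genes gave little signal. Cacna1f, the retinal L-type gene, gave 36.3 and 31.7 units in PHF6 shRNA neurons, against 35.3 and 31.8 in control neurons. Cacna2d4 gave 25.8 and 23.7 in PHF6 shRNA neurons, against 27.5 and 23.4 in control neurons. Both were above background on no array, so a difference could not be shown. Cacna1s was not analysed here.

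Gamma subunit genes, most of which encode AMPA receptor auxiliary proteins named after the calcium channel subunit of muscle, were measured in 8 of 8, with 4 above and 4 below control, a median of 0.00 and none called. After a further quantile normalization 6 of the 8 lay above control, and after cyclic loess 7. Cacng8 gave 170 and 173 units in PHF6 shRNA neurons, against 135 and 149 in control neurons, without overlap, at 0.28 ± 0.09 log2 units (limma adjusted p = 0.39). Cacng2, stargazin, also lay above control without overlap, at 0.19 ± 0.09 (0.59). Cacng5 overlapped, at -0.30 ± 0.23, and Cacng7, at -0.06 ± 0.09, overlapped as well.

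Among 11 measured modulators of calcium channels, 8 lay below and 3 above control, with a median of -0.03 and none called. Cbarp, which encodes a membrane protein that binds beta subunits and restrains channel activity, gave 123 and 128 units in PHF6 shRNA neurons, against 194 and 154 in control neurons. The groups did not overlap, and the difference was -0.46 ± 0.13 log2 units (limma adjusted p = 0.32), or -0.30 without control duplicate 1 and -0.63 without control duplicate 2. With the duplicate number as a block, Cbarp was called (limma adjusted p = 0.047). Cachd1, a relative of the alpha2delta subunits, lay below control without overlap at -0.18 ± 0.10 (0.64). The small GTPase genes Rem2 and Gem, whose products inhibit these channels, stood at -0.18 and 0.19, with Rem2 above background on no array and Gem on 2.

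Genes of the release site, where scaffolds hold presynaptic calcium channels close to vesicles, were below control in 10 of 15, with a median of -0.06, or 0.02 after cyclic loess, and none was called. Cask, a scaffold kinase, gave 651 and 696 units in PHF6 shRNA neurons, against 843.7 and 844.3 in control neurons, without overlap, at -0.33 ± 0.08 log2 units (limma adjusted p = 0.29). Pclo, which encodes the active zone protein piccolo, stood at -0.37 ± 0.12 (0.39) and Rims1, whose product tethers channels to release sites, at -0.34 ± 0.14 (0.49). Rims4, a short RIM relative, lay above control at 0.32 ± 0.08 (0.29), with 86.4 and 90.4 units in PHF6 shRNA neurons, against 71.4 and 70.0 in control neurons.

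Genes that clear or store calcium lay below control in 11 of 20, with a median of -0.04, or 0.01 after cyclic loess, and none was called. Atp2b1, a plasma membrane calcium pump, gave 506 and 458 units in PHF6 shRNA neurons, against 619 and 661 in control neurons. The groups did not overlap, and the difference was -0.41 ± 0.10 log2 units (limma adjusted p = 0.27). Slc8a2, a sodium-calcium exchanger, gave 229 and 170 in PHF6 shRNA neurons, against 128 and 149 in control neurons, again without overlap, at 0.51 ± 0.17 (limma adjusted p = 0.38). Mcu, the pore of the mitochondrial uniporter, and Orai2, a store-operated channel, stood at -0.27 ± 0.08 and -0.30 ± 0.10 (limma adjusted p = 0.36 and 0.40).

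Calcium-activated potassium channels, which calcium entry opens, lay above control in 4 of 6, with a median of 0.03 and none called. Kcnma1, the BK channel pore, gave 603 and 519 units in PHF6 shRNA neurons, against 684 and 687 in control neurons. It did not overlap, at -0.29 ± 0.10 log2 units (limma adjusted p = 0.41). The SK channel genes Kcnn1 and Kcnn3 stood at -0.22 ± 0.10 and 0.28 ± 0.13 (0.50 and 0.52), and Kcnn4 was above background on no array. Among extracellular partners of alpha2delta subunits 3 of 6 were measured. Lrp1, a large endocytic receptor, overlapped at -0.22 ± 0.16 (0.78), and the thrombospondin genes Thbs2 and Thbs4 were above background on 2 and 1 arrays, with none called. Of 25 genes named here as channel partners, from Cacna1i and the beta subunits to Lrp1, 17 gave a difference over 1.5 times larger or smaller when 1 array was left out, and 4 of these turned (Cacnb1, Cacnb4, Cacng5 and Cacng7).

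**Figure D3:**
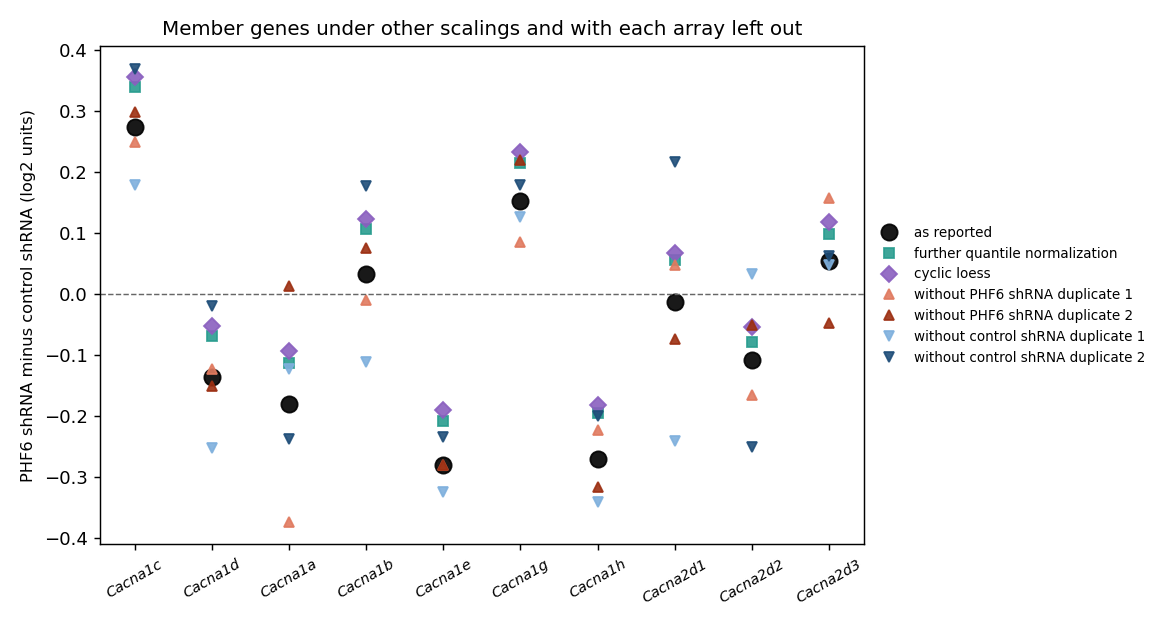
Difference between PHF6 shRNA and control shRNA arrays (vertical axis, log2 units) of the 10 member genes as reported (black) and under 2 other scalings or with 1 array left out (coloured symbols). Cacna1c and Cacna1g stay above 0, and Cacna1d, Cacna1e and Cacna1h below it, in all of these, while each of the other 5 genes crosses 0 in at least 1.

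Leaving out 1 array separated the members into those with and without a steady direction. Cacna1e ranged from -0.33 to -0.24 log2 units, Cacna1h from -0.34 to -0.20 and Cacna1c from 0.18 to 0.37. Cacna1g ranged from 0.08 to 0.22 and Cacna1d from -0.25 to -0.02. Groups that do not overlap keep their direction in such fits by construction. The 5 overlapping members turned. Cacna1a ranged from -0.37 to 0.01, Cacna1b from -0.11 to 0.18, Cacna2d1 from -0.24 to 0.22, Cacna2d2 from -0.25 to 0.03 and Cacna2d3 from -0.05 to 0.16.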

How the data were processed

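RNA of each sample was measured on a 1-colour Affymetrix array after Trizol extraction, sense-strand target synthesis and biotin labelling, per the labels. The deposited values are probe set intensities, and the authors made them with RMA, per the submitters' processing notes. No RMA version or setting is given there. The 29214 intensities per array were on a linear scale and log2 was taken. Rows with 1 symbol (18644) gave 17245 genes, named through gene identifiers by RefSeq (GRCr8), with the brightest probe set per gene. The test was limma's moderated test (version 3.58.1, R 4.3.3), 2-sided and with no covariate, and Benjamini-Hochberg adjustment ran over all genes at a threshold of 0.05. Differences are PHF6 shRNA minus control shRNA with limma's SE, and exact permutation tests used SciPy 1.17.1. With 2 arrays per group, their number limits the precision. Members and lists were chosen with earlier results of these data known. The text names all members, all other pore, alpha2delta and beta genes, and up to 4 genes of each other list by smallest p, and Phf6. Of 147 list genes 134 were measured.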

Additional observations from a re-analysis of the deposited data

How the results depend on the processing

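Over 14 alternatives, 0 of the 10 members were called in every fit. Their smallest adjusted p over all of these was 0.089 (Cacna1e, with the duplicate number as a replicate block). In that block fit Cacna1h had a limma adjusted p of 0.093 and Cacna1c of 0.13, and 909 of all genes were called, against 0 without the block (1862 at an unadjusted p under 0.05). The descriptions repeat the numbers after the letters exp, and no label says whether same-numbered arrays share a culture, batch or day. Deviations of same-numbered arrays from their group means correlated at r = 0.57 over the 17245 genes, which are not independent replicates. Of the beta subunits, Cacna1i, Cacng8 and Cbarp, only Cbarp was called in the block fit (limma adjusted p = 0.047). Block results of the other partner genes are not given here, so more of them may have been called. With each array left out in turn, 0 to 90 genes were called over all genes, 90 of them when PHF6 shRNA duplicate 2 was missing and 2 when PHF6 shRNA duplicate 1 was. These fits assume that the lone array varies like the other group. The other alternatives called 0 genes. Of 140 member values 131 kept their direction. The 9 that turned were 2 of Cacna2d1, at 0.055 after a further quantile normalization and 0.067 after cyclic loess, and 7 with an array left out. The 7 lay in the leave-one-out ranges of Cacna1a (-0.37 to 0.013), Cacna1b (-0.11 to 0.18), Cacna2d1 (-0.24 to 0.22), Cacna2d2 (-0.25 to 0.033) and Cacna2d3 (-0.048 to 0.16). The cause was not tested. No scanner files were used here, so background correction was not varied.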
